A study of Canis lupus familiaris with 12 samples.

Results

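The genes described here encode the SLC25 mitochondrial carriers. Their RNA was sequenced in the mitral valve and left ventricle of dogs diagnosed with degenerative mitral valve disease, abbreviated DMVD, and of healthy controls. Members were all rows of the 2 tissue tables whose gene name is SLC25A followed by a number. This gave 41 of the 24223 genes listed, each with 1 row per tissue. In DMVD the mitral leaflets thicken over years and close poorly, so that blood regurgitates from the ventricle. The DMVD mitral valve group holds 3 libraries, from a Pomeranian aged 9 years and Beagles aged 16 and 17 years. The control mitral valve group also holds 3, from a Beagle (8 years) and 2 Hound mixes (3 years each). The DMVD left ventricle group holds 2 libraries, from a Jack Russell Terrier (5 years) and the same Pomeranian. The control left ventricle group holds 4, from that control Beagle and 3 Hound mixes (3 years each). No treatment of the dogs is named in the labels. Of the 8 dogs, 1 with DMVD and 3 controls gave both tissues. Diagnosis cannot be told apart from breed and age, since DMVD dogs were older or of other breeds.

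SLC25 carriers sit mostly in the inner mitochondrial membrane and move metabolites between the cytosol and the matrix. Through them ADP enters and ATP leaves, fatty acids arrive as carnitine esters, and reducing equivalents are passed by the malate-aspartate shuttle. Heart muscle, which draws almost all of its ATP from mitochondria, depends on the muscle ADP/ATP exchanger SLC25A4.

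The tables give a single value per diagnosis and tissue, in FPKM (fragments scaled by gene length and by library size). Spread between dogs and depth per library are therefore unknown. A log2 fold change is given as DMVD over control. The value behind its ± sign is a standard error (SE) derived from the statistic that the authors deposited for the gene. A member passed when the authors' p, adjusted by Benjamini-Hochberg over all genes tested in that tissue, was under 0.05. The mitral valve samples held heart muscle transcripts. The summed level of 8 cardiomyocyte markers tested in both tissues was 11091 FPKM in DMVD valves and 21370 FPKM in control valves, and 37235 FPKM in DMVD ventricles and 41283 FPKM in control ventricles. PLN alone gave 3791 FPKM in DMVD valves and 8204 FPKM in control valves. In ventricles PLN gave 18413 FPKM in DMVD and 19863 FPKM in control samples, and the sums carry no test. Of 14 listed cardiomyocyte markers 9 matched, and MYH7 is left out of these sums. In the ventricle MYH7 was not tested and carried the status HIDATA. It was listed there at 1637 FPKM in DMVD and at 0 in control samples, and this 0 is not read as a level. In bulk samples such as these, fewer cells of a type and less RNA per cell cannot be told apart.

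SLC25A4 alone made up most of the summed level of the 41 members, and the lowest members were close to 0. Another 6 SLC25A symbols of RefSeq, among them SLC25A3, matched no gene name, so shares and ranks leave them out. SLC25A4 (ENSCAFG00000007596, chromosome 16, 45454662 to 45458511, CanFam3.1) stood at 1155 FPKM in DMVD valves and 1741 FPKM in control valves, and at 3862 FPKM in DMVD ventricles and 3388 FPKM in control ventricles. It ranked first in all 4 groups. Its share of the summed level of the 41 members was 64.8% in DMVD valves and 72.7% in control valves, against 84.2% in DMVD ventricles and 81.6% in control ventricles. Beside it, SLC25A11, the oxoglutarate/malate exchanger of the malate-aspartate shuttle, reached 130.2 FPKM in DMVD valves and 188 FPKM in control valves, and 260.1 FPKM in DMVD ventricles and 289 FPKM in control ventricles. Over 10 FPKM stood 15 members in DMVD valves and 14 in control valves, against 13 in DMVD ventricles and 12 in control ventricles. At the low end, 7 members in the valve and 9 in the ventricle stayed under 1 FPKM in both diagnosis groups. SLC25A53 was listed at 0 in control valves and in DMVD ventricles.

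**Figure D1:**
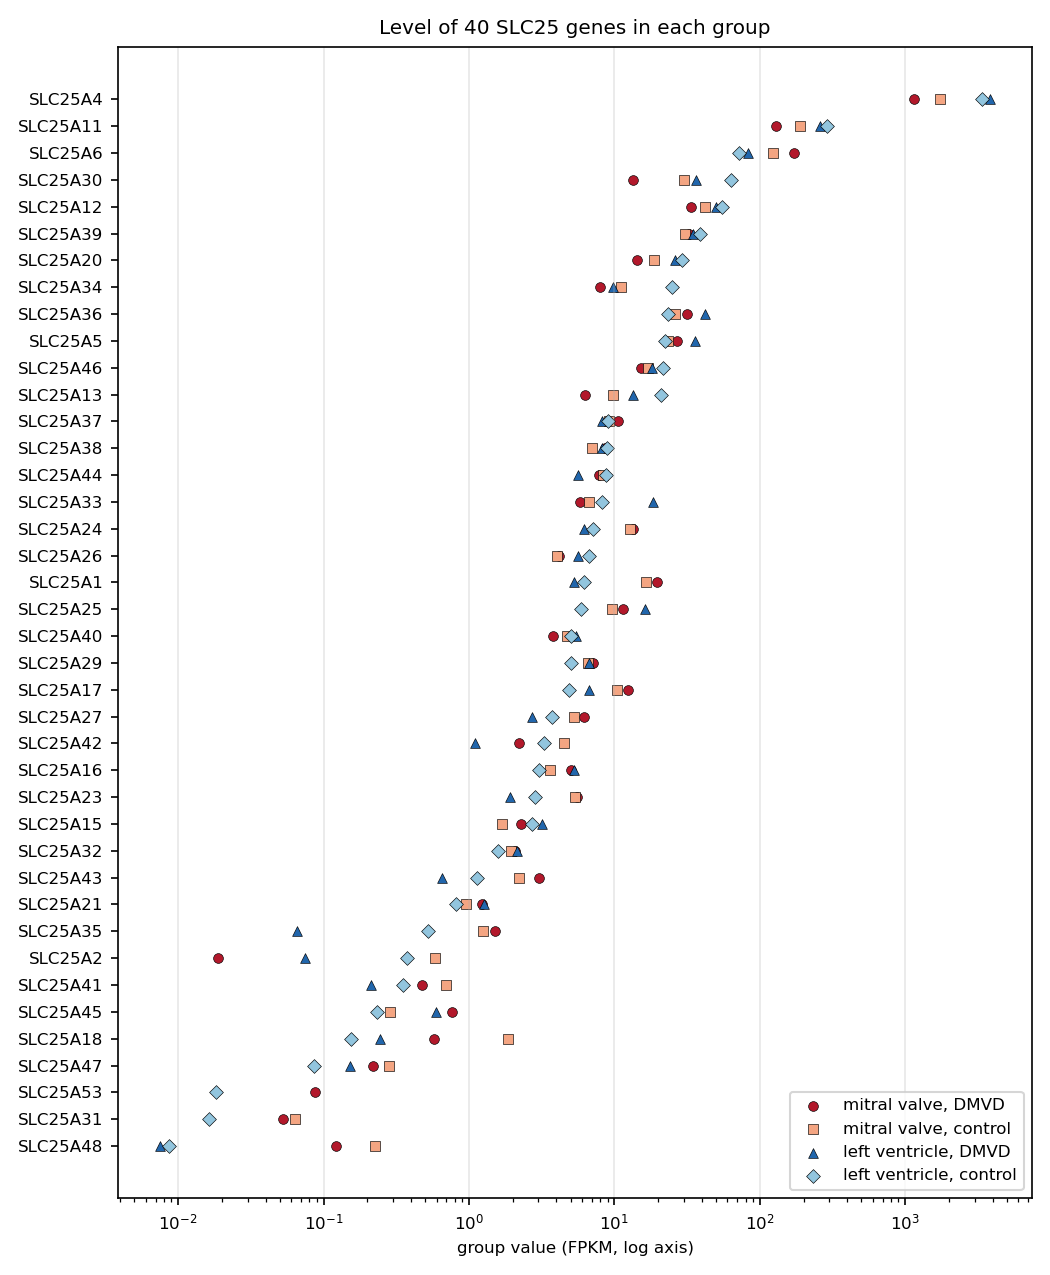
Group value in FPKM on a log axis for 40 of the 41 SLC25 genes, with a symbol for each tissue and diagnosis and genes ordered by their level in control ventricles; values listed at 0 are not drawn. SLC25A4 lies far to the right of all others, from 1155 FPKM in DMVD valves to 3862 FPKM in DMVD ventricles, and the lowest members lie under 1 FPKM.

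After SLC25A4 and SLC25A11, the order in control ventricles was SLC25A6 at 72.5 FPKM, SLC25A30 at 63.4 FPKM, SLC25A12 at 54.6 FPKM, SLC25A39 at 39.0 FPKM, SLC25A20 at 29.1 FPKM and SLC25A34 at 25.1 FPKM. These encode an ADP/ATP exchanger, an uncoupling-protein relative, an aspartate/glutamate carrier, a carrier needed for mitochondrial glutathione, the carnitine/acylcarnitine carrier and a member without a firmly assigned substrate. In control valves SLC25A6 at 124 FPKM again came after SLC25A11, followed by SLC25A12 at 41.9 FPKM, SLC25A39 at 30.5 FPKM, SLC25A30 at 30.0 FPKM, SLC25A36 at 26.1 FPKM and SLC25A5 at 23.6 FPKM. Without values per dog, neighbours in these orders could not be compared with their spread.

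The 3 expressed ADP/ATP exchangers were mixed differently in the valve and in the ventricle groups. SLC25A6 stood at 172 FPKM in DMVD valves and 124 FPKM in control valves, and at 83.2 FPKM in DMVD ventricles and 72.5 FPKM in control ventricles. SLC25A5, the form typical of dividing cells, stood at 27.0 FPKM in DMVD valves and 23.6 FPKM in control valves, and at 36.1 FPKM in DMVD ventricles and 22.3 FPKM in control ventricles. SLC25A6 thus made up 12.7% of the exchanger level in DMVD valves and 6.54% in control valves, against 2.09% in DMVD ventricles and 2.08% in control ventricles. The level of SLC25A4 was 6.72 times that of SLC25A6 in DMVD valves and 14.1 times in control valves, against 46.4 times in DMVD ventricles and 46.8 times in control ventricles. These ratios lie within a column of a table and do not depend on how the tables were scaled, and they carry no test. SLC25A31, the testis form, was at 0.0530 FPKM in DMVD valves and 0.0638 FPKM in control valves, and was listed at 0 in DMVD ventricles beside 0.0162 FPKM in control ventricles. The exchangers are close paralogues, so reads that 2 of them share may have been split between them, and their separate levels are uncertain.

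**Figure D2:**
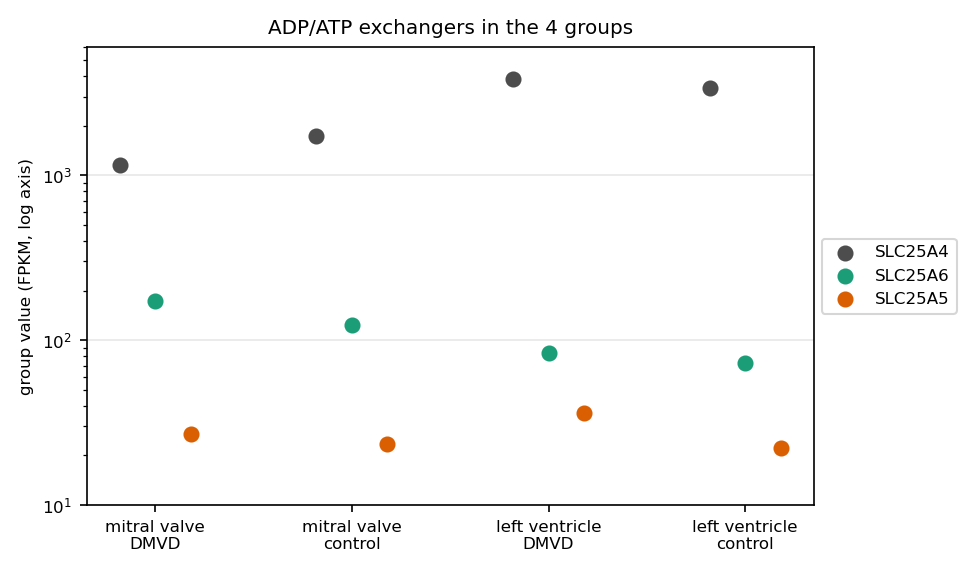
Group value in FPKM on a log axis for the ADP/ATP exchangers SLC25A4, SLC25A6 and SLC25A5 in the DMVD and control groups of each tissue, with 1 point per gene and group. SLC25A4 and SLC25A6 lie closest in DMVD valves, at 1155 and 172 FPKM, and far apart in control ventricles, at 3388 and 72.5 FPKM.

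No exchanger passed the test in either tissue. SLC25A4 differed by -0.59 ± 1.21 between DMVD and control valves and by 0.19 ± 0.75 between DMVD and control ventricles. The 95% interval ran from -2.96 to 1.78 in the valve and from -1.29 to 1.67 in the ventricle, so both intervals held 2-fold differences in either direction. SLC25A6 had 0.48 ± 0.57 in the valve and 0.20 ± 0.49 in the ventricle. SLC25A5 had 0.20 ± 0.43 in the valve and 0.70 ± 0.41 in the ventricle.

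In the left ventricle, SLC25A25 was the only member that passed, with a higher value in DMVD, and no member passed with a lower value. SLC25A25 (ENSCAFG00000020091, chromosome 9, 55358215 to 55394519, CanFam3.1) encodes a calcium-regulated carrier that exchanges ATP-Mg for phosphate and so sets the adenine nucleotide content of the matrix. It stood at 16.2 FPKM in DMVD ventricles and 5.87 FPKM in control ventricles, a log2 fold change of 1.47 ± 0.42. The test of the authors gave it a Benjamini-Hochberg adjusted p = 0.0208. The rise was not called under the stricter Benjamini-Yekutieli adjustment, where its adjusted p was 0.21. Of the 41 members, 34 were tested in this tissue and 33 did not pass, and the 7 untested ones stood at or under 0.377 FPKM in both groups. The single rise was set against a background of 1.92% of all tested genes that rose, 1.16% that fell and 3.08% that passed in either direction. At an unadjusted p under 0.05 stood 4 of the 34 members, or 11.8%, against 11.3% of all 13788 tested genes, so the share of the family was near the background. These 4 were 2 with higher and 2 with lower values, where 5.74% of all tested genes had higher and 5.51% lower values at that p.

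The other members of the ATP-Mg/phosphate group did not pass in the ventricle. SLC25A24 stood at 6.17 FPKM in DMVD ventricles and 7.10 FPKM in control ventricles (-0.20 ± 0.48), and SLC25A23 at 1.90 FPKM in DMVD ventricles and 2.85 FPKM in control ventricles (-0.59 ± 0.54). SLC25A25 was therefore 2.63 times the level of SLC25A24 in DMVD ventricles and 0.827 times its level in control ventricles. In the valve the same ratio was 0.859 in DMVD and 0.756 in control samples. SLC25A41, the fourth of this group, stood under 1 FPKM in all 4 groups and was not tested.

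A further 3 members had an unadjusted p under 0.05 in the ventricle but did not pass after adjustment. SLC25A42, which brings coenzyme A into mitochondria, stood at 1.10 FPKM in DMVD ventricles and 3.29 FPKM in control ventricles (-1.58 ± 0.51). Its Benjamini-Hochberg adjusted p was 0.0567, the first beyond the threshold among the members, and with 1 FPKM added to both groups its log2 fold change was -1.03. SLC25A34 stood at 9.84 FPKM in DMVD ventricles and 25.1 FPKM in control ventricles (-1.35 ± 0.47; by the authors' test, Benjamini-Hochberg adjusted p = 0.102). SLC25A33, which carries pyrimidine nucleotides, stood at 18.3 FPKM in DMVD ventricles and 8.28 FPKM in control ventricles (1.14 ± 0.42; by the authors' test, Benjamini-Hochberg adjusted p = 0.127). All of these differences were over 2-fold between the group values, with 2 DMVD libraries behind each.

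The remaining carriers of the ventricle showed smaller or poorly determined differences. SLC25A36, the other pyrimidine nucleotide carrier, stood at 41.7 FPKM in DMVD ventricles and 23.3 FPKM in control ventricles (0.84 ± 0.44). Among carboxylate and aspartate carriers 0 of 5 passed, and SLC25A11 (-0.15 ± 0.46), SLC25A12 (-0.12 ± 0.44), SLC25A13 (-0.64 ± 0.42) and the citrate carrier SLC25A1 (-0.24 ± 0.53) all had lower values in DMVD. SLC25A21, the oxoadipate carrier, had 0.63 ± 0.52. None of 5 tested amino acid and carnitine carriers passed, with -0.16 ± 0.41 for the carnitine/acylcarnitine carrier SLC25A20, 0.22 ± 0.61 for the ornithine carrier SLC25A15 and -0.13 ± 0.50 for SLC25A38, which brings glycine to haem synthesis. Of 9 cofactor, glutathione and iron carriers 0 passed, with values from -1.58 for SLC25A42 to 0.81 for SLC25A16, and with 0.12 ± 0.46 for SLC25A40, a close relative of the glutathione carrier SLC25A39. Mitoferrin 1, SLC25A37, which imports iron for haem synthesis, had -0.13 ± 0.49. Erythroid markers moved in the same comparison: all 4 tested ones passed, with a median of 6.13 and a summed level of 3604 FPKM in DMVD ventricles and 62.6 FPKM in control ventricles, while SLC25A37 stood at 8.19 FPKM in DMVD ventricles and 8.98 FPKM in control ventricles.

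SLC25A30, an uncoupling-protein relative first described in kidney, stood at 36.3 FPKM in DMVD ventricles and 63.4 FPKM in control ventricles (-0.81 ± 0.43). SLC25A45 stood at 0.595 FPKM in DMVD ventricles and 0.234 FPKM in control ventricles (1.35 ± 0.70), and with 1 FPKM added the log2 fold change was 0.37. SLC25A35 had the most negative log2 fold change, at 0.0657 FPKM in DMVD ventricles and 0.525 FPKM in control ventricles, but its SE was 4.04, larger than the change itself, and with 1 FPKM added the change was -0.52. SLC25A26, the S-adenosylmethionine carrier, had an SE of 2.60 in the ventricle and 2.50 in the valve at levels of 4.05 to 6.65 FPKM, so its change was barely determined. Over the 34 tested members 14 had higher and 20 lower values in DMVD ventricles, with a median of -0.14 beside -0.04 over all tested genes.

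**Figure D3:**
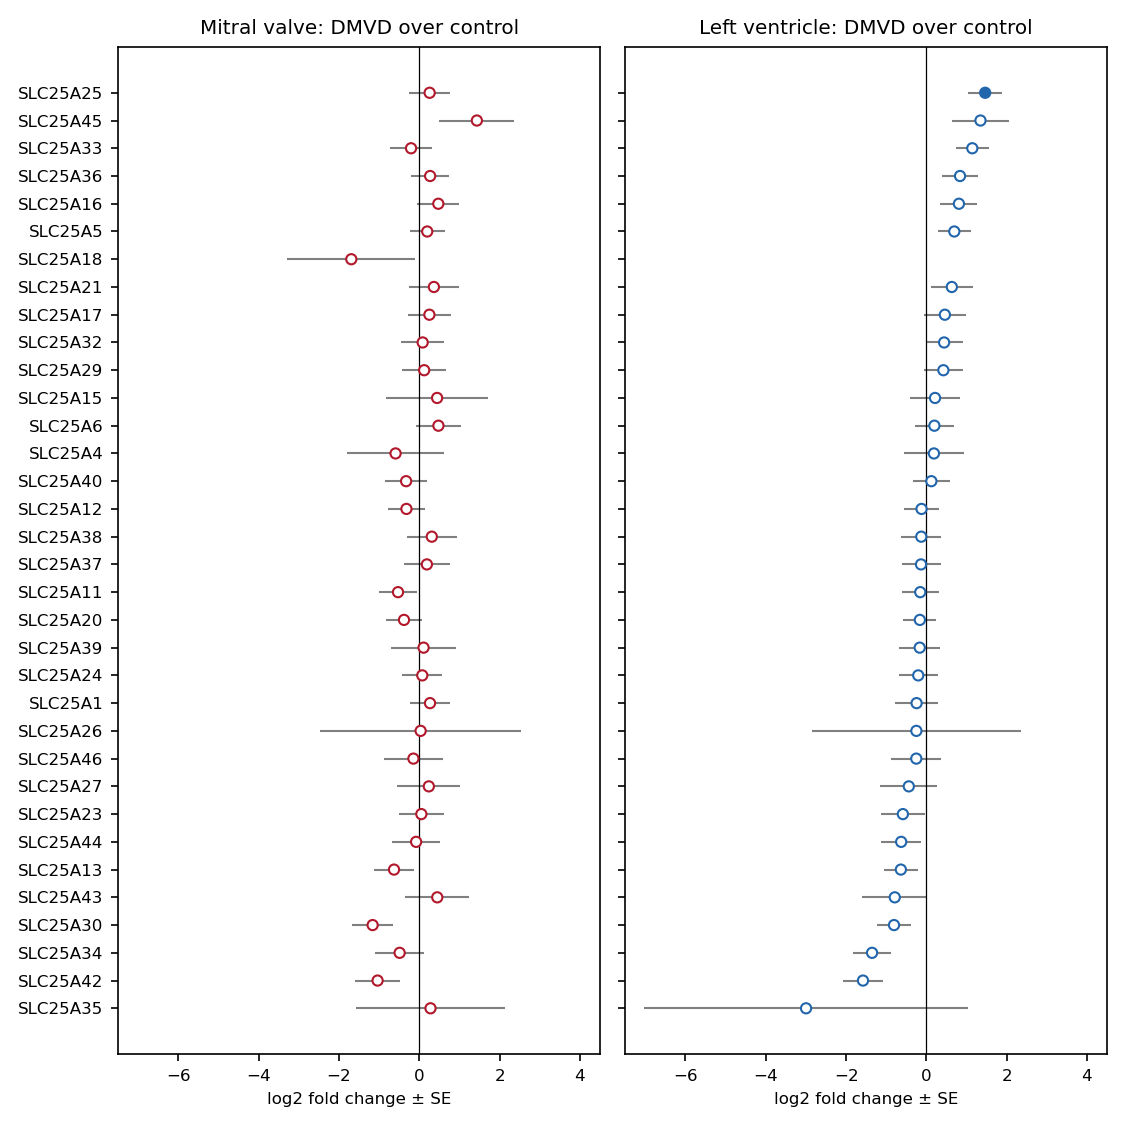
Log2 fold change of DMVD over control, with bars of 1 SE from the authors' statistic, for each tested member but 1 in the mitral valve (left panel) and the left ventricle (right panel), ordered by the ventricle value. Filled points passed an adjusted p of 0.05; the filled point is SLC25A25 in the ventricle at 1.47 ± 0.42, and all points of the valve are open.

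In the mitral valve no member passed. Of the 41 members, 35 were tested and 35 did not pass, where 0.419% of all 14810 tested genes passed in this tissue, 0.311% higher and 0.108% lower, by the Benjamini-Hochberg adjustment of the authors' p. At an unadjusted p under 0.05 stood 1 member, SLC25A30, or 2.86% of the tested members against 4.2% of all tested genes. It had the lower value in DMVD, as did 1.47% of all tested genes at that p, while 2.73% had the higher one and no member did. SLC25A30 stood at 13.4 FPKM in DMVD valves and 30.0 FPKM in control valves (-1.16 ± 0.51; by the authors' test, Benjamini-Hochberg adjusted p = 0.804). SLC25A42 stood at 2.19 FPKM in DMVD valves and 4.51 FPKM in control valves (-1.04 ± 0.55). SLC25A45 stood at 0.769 FPKM in DMVD valves and 0.285 FPKM in control valves (1.43 ± 0.93), or 0.46 with 1 FPKM added. SLC25A18, a glutamate carrier, stood at 0.573 FPKM in DMVD valves and 1.86 FPKM in control valves (-1.69 ± 1.59), or -0.86 with 1 FPKM added. SLC25A16 had 0.47 ± 0.52.

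In DMVD valves 45.1% of all tested genes had lower values than in control valves, as did 37.1% of the tested members. Of the 8 members highest in control ventricles, 6 had lower and 2 had higher values in DMVD valves, and none of the 8 passed. Beside SLC25A4 and SLC25A30, the lower ones were SLC25A11 (-0.53 ± 0.48), SLC25A12 (-0.32 ± 0.46), SLC25A20 (-0.38 ± 0.46) and SLC25A34 (-0.49 ± 0.61). The higher ones were SLC25A6 (0.48 ± 0.57) and SLC25A39 (0.11 ± 0.81). The next in that order, SLC25A36 (0.27 ± 0.47) and SLC25A5 (0.20 ± 0.43), also had higher values, and SLC25A13 had -0.63 ± 0.50. Of 9 cardiomyocyte markers tested in the valve 8 had lower values in DMVD, with a median of -1.11, and 1 passed and fell, the ventricular light chain gene MYL3, at 36.6 FPKM in DMVD valves and 1335 FPKM in control valves. The part of heart muscle RNA in the carrier values was not tested. Values close to 0 came from SLC25A23 (0.05 ± 0.57), SLC25A24 (0.07 ± 0.49), SLC25A46 (-0.15 ± 0.74), which sits in the outer membrane, and SLC25A44 (-0.08 ± 0.60), a carrier of branched-chain amino acids in mouse brown fat. Across the 35 tested members 22 had higher and 13 lower values in DMVD valves, with a median of 0.08 beside 0.05 over all tested genes.

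The DMVD effects of the tissues were set against each other for the 34 members tested in both. By the test of the difference itself, valve minus ventricle, 0 of the 34 passed, where 0.107% of 13099 genes did. The lowest Benjamini-Hochberg adjusted p was near 1. At an unadjusted p under 0.05 stood 1 member, SLC25A33, with a difference of -1.35 ± 0.66 from values of -0.21 ± 0.51 in the valve and 1.14 ± 0.42 in the ventricle, where 2.66% of all genes stood there. SLC25A25 differed by -1.21 ± 0.66, from 0.26 ± 0.51 in the valve and 1.47 ± 0.42 in the ventricle, so the rise in the ventricle was not shown to be absent from the valve. In the valve SLC25A25 stood at 11.5 FPKM in DMVD samples and 9.63 FPKM in control samples. SLC25A30 differed by -0.36 ± 0.67 and SLC25A42 by 0.54 ± 0.75, from lower DMVD values in both tissues. The test treats the tissues as independent, although 4 dogs gave both.

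Levels in control valves relative to control ventricles differed by carrier. The tables were normalised separately, and the median log2 ratio of 11498 genes above 1 FPKM in both was 0.31, so ratios are read against that shift. Of 31 members above 1 FPKM in both control groups, 21 lay below the shift and 10 above it, and the members' median was 0.04. More than 2-fold below the shift lay 6 of 31 members, or 19.4%, against 6.78% of all genes. More than 2-fold above it lay 1 of 31, SLC25A1, against 8.91% of all genes. These values carry no test because no spread between dogs is known.

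The members furthest below were SLC25A34 at 11.2 FPKM in control valves and 25.1 FPKM in control ventricles (log2 ratio -1.17), SLC25A13 at 9.79 FPKM in control valves and 20.8 FPKM in control ventricles (-1.09) and SLC25A30 at 30.0 FPKM in control valves and 63.4 FPKM in control ventricles (-1.08). SLC25A4 (-0.96), SLC25A26 (-0.72), SLC25A15 (-0.70), SLC25A20 (-0.64) and SLC25A11 (-0.62) followed. The sign of a ratio rests on the scaling, but a scaling moves all genes alike. It leaves the place of a member against the shift unchanged. Mitochondrial genome rows made up 22.3% of the column sum in DMVD valves and 35.7% in DMVD ventricles. In control samples they made up 39.2% in valves and 70.1% in ventricles. With values divided by the column sums, 29 of the 31 members were higher in the valve, among them SLC25A4 at 0.12 and SLC25A30 at 0.00. SLC25A34 had -0.09 and SLC25A13 -0.01. With those mitochondrial rows left out of the sums, SLC25A34 had -1.11, SLC25A13 -1.03, SLC25A30 -1.02 and SLC25A4 -0.90.

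Other carriers had higher levels in control valves. SLC25A1, which exports citrate for fatty acid and sterol synthesis, stood at 16.5 FPKM in control valves and 6.21 FPKM in control ventricles (1.41). SLC25A17, a carrier of the peroxisomal membrane for cofactors such as coenzyme A, stood at 10.4 FPKM in control valves and 4.89 FPKM in control ventricles (1.08). SLC25A43 had a ratio of 0.97, SLC25A23 of 0.91, SLC25A24 of 0.84 and SLC25A6 of 0.77, and each of these 6 members kept a positive ratio under every scaling run. SLC25A18 stood at 1.86 FPKM in control valves and 0.154 FPKM in control ventricles (3.59), and SLC25A35 at 1.25 FPKM in control valves and 0.525 FPKM in control ventricles (1.25), so both were under 1 FPKM in the ventricle.

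Between the DMVD groups the shift of all genes was 0.34, beside 0.31 between the control groups. SLC25A4 had a log2 ratio of valve over ventricle of -1.74 in DMVD and -0.96 in control samples, SLC25A30 of -1.44 in DMVD and -1.08 in control samples, and SLC25A1 of 1.91 in DMVD and 1.41 in control samples. SLC25A25 had -0.50 in DMVD and 0.71 in control samples, and SLC25A33 had -1.67 in DMVD and -0.31 in control samples. The summed level of cardiomyocyte markers was lower in the valve, as given above, but not every marker followed it. ATP2A2 had a log2 ratio of 0.43 in DMVD and 0.21 in control samples, and ACTC1 of -0.05 in DMVD and 0.83 in control samples. The sum of 4 fibroblast and valve interstitial cell markers was 2260 FPKM in DMVD valves and 1979 FPKM in control valves. In the ventricle it was 383 FPKM in DMVD and 366 FPKM in control samples. The part of tissue makeup in the carrier ratios was not tested.

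**Figure D4:**
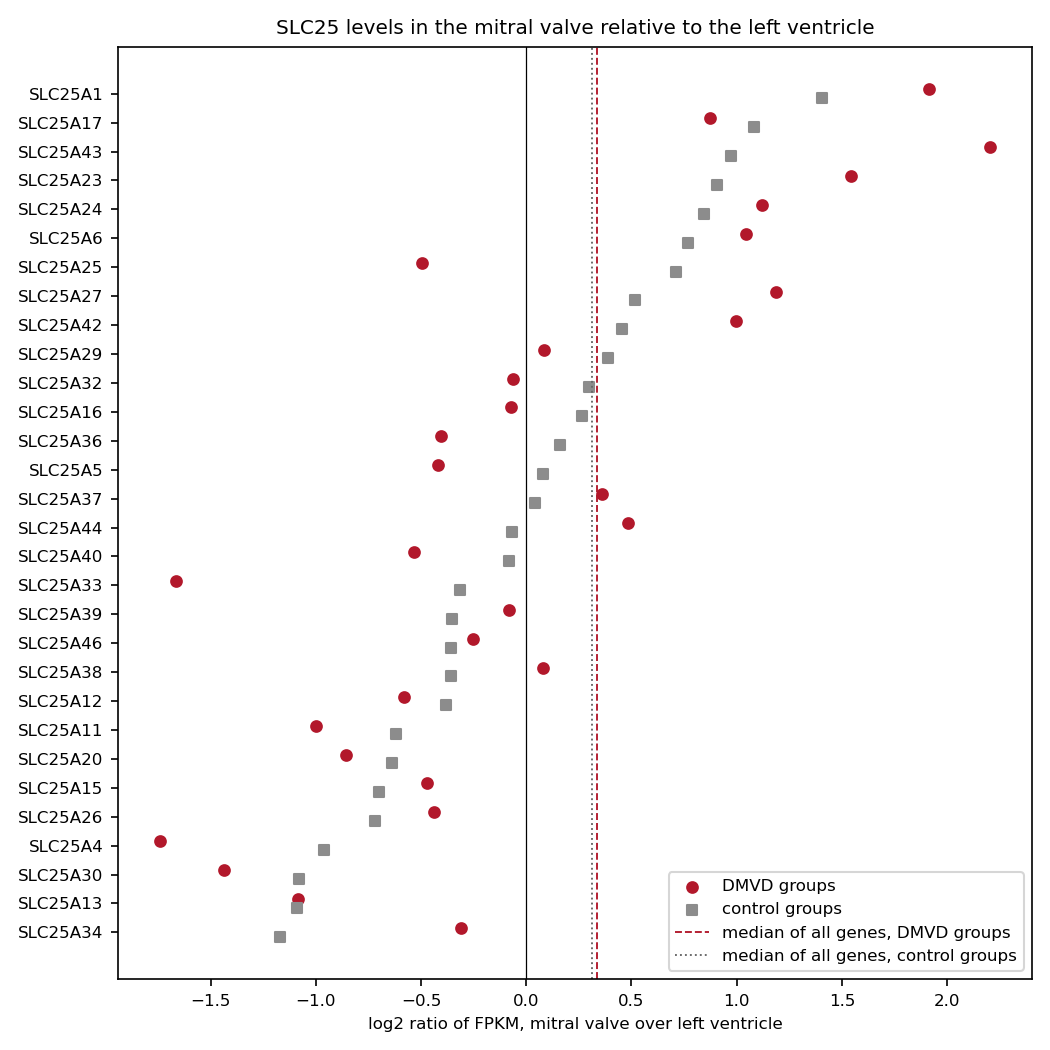
Log2 ratio of FPKM, mitral valve over left ventricle, for 30 of the 31 members above 1 FPKM in both control groups, with circles for the DMVD groups and squares for the control groups; the dashed and dotted lines mark the median of all genes, at 0.34 and 0.31. SLC25A34, SLC25A13, SLC25A30 and SLC25A4 lie at the bottom, near -1 in control samples, and SLC25A1 at the top, at 1.91 in DMVD and 1.41 in control samples.

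Genes that work beside the carriers were counted in 9 lists, and in 6 of them no gene passed in either tissue. Over all lists 0 of 41 tested genes passed in the valve, where 0.419% of all tested genes did, and 3 of 41 in the ventricle, where 3.08% did. The outer membrane channels VDAC1, VDAC2 and VDAC3, through which metabolites reach the carriers, did not pass in either tissue, with a median of -0.47 in the valve and 0.37 in the ventricle. Of 7 tested genes for the import of carriers into the inner membrane 0 passed in either tissue, with a median of -0.33 in the valve, where all 7 had lower DMVD values, and -0.08 in the ventricle. Of 14 listed ATP synthase subunits 5 were tested and 0 passed, with a median of -0.77 in the valve and -0.04 in the ventricle. Of 7 genes of mitochondrial biogenesis 0 passed, with a median of -0.40 in the valve and -0.24 in the ventricle. For comparison, all tested genes had a median of 0.05 in the valve, where 45.1% had lower DMVD values, and -0.04 in the ventricle. The carrier-like outer membrane proteins MTCH1 and MTCH2 and the shuttle enzymes MDH1 and GOT1 did not pass in either tissue. MDH2, of the same shuttle, was not tested in either tissue, and its highest group value was 0.119 FPKM, in control valves.

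Among the partner lists 3 genes passed, all in the ventricle. GPD1, the cytosolic enzyme of the glycerophosphate shuttle, fell to 11.3 FPKM in DMVD ventricles, against 51.2 FPKM in control ventricles (-2.18 ± 0.44). It stood at 7.16 FPKM in DMVD valves and 30.4 FPKM in control valves, where it did not pass (-2.09 ± 0.57; by the authors' test, Benjamini-Hochberg adjusted p = 0.0535). ACSL1, which activates long-chain fatty acids ahead of the carnitine route, fell to 33.5 FPKM in DMVD ventricles, against 99.8 FPKM in control ventricles (-1.57 ± 0.49). By the authors' test its Benjamini-Hochberg adjusted p there was 0.0462, close to the threshold. ACSL1 was the 1 of 6 carnitine system genes to pass in the ventricle, and had -1.36 ± 0.47 in the valve, where it did not pass. ALAS2, the erythroid enzyme that starts haem synthesis, rose by 1.84 ± 0.50, to 2.91 FPKM in DMVD ventricles, against 0.812 FPKM in control ventricles, and was the 1 of 7 iron and haem genes to pass. It is also an erythroid marker. Of 6 listed fat cell markers 4 matched and 3 were tested in the ventricle. Of these 3, 2 passed with lower values in DMVD and 1 had a higher value. PLIN1 and CIDEC fell, at 0.245 and 0.318 FPKM in DMVD ventricles and 5.44 and 2.30 FPKM in control ventricles. CFD did not pass, at 33.9 FPKM in DMVD ventricles and 30.4 FPKM in control ventricles (0.16 ± 0.45). The sum of the 3 was 34.5 FPKM in DMVD ventricles and 38.1 FPKM in control ventricles. The part of fat cells in the fall of GPD1 was not tested. All 4 neutrophil and monocyte markers also rose in DMVD ventricles, to a sum of 376 FPKM, against 14.1 FPKM in control ventricles, and of 3 endothelial markers VWF rose there.

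Several members lie close together on the chromosomes without sharing a level. SLC25A43 and SLC25A5 are 14.0 kb apart on chromosome X, SLC25A23 and SLC25A41 3.97 kb apart on chromosome 20, and SLC25A29 and SLC25A47 22.4 kb apart on chromosome 8. SLC25A29, a carrier of basic amino acids, stood at 7.12 FPKM in DMVD valves and 6.55 FPKM in control valves, while its neighbour SLC25A47 stood at 0.220 FPKM in DMVD valves and 0.282 FPKM in control valves. Of the 41 members 9 share their listed locus with other genes, so their positions are the span of several genes. Among them SLC25A39 shares it with FAM171A2, GRN and RUNDC3A, and SLC25A26 with LRIG1.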

How the data were processed

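Per the labels' protocols, the RNeasy Fibrous Tissue kit gave total RNA, which went into TruSeq libraries. The series' design text names an Illumina HiSeq. The submitters' processing notes name cutadapt, Bowtie, TopHat and the build CanFam3.1, without versions. No source used here names the program behind the gene values, nor the count of reads per library. Per the file headers, the authors deposited 1 table per tissue with 1 value per group, laid out like a Cuffdiff table. No header names the unit, and the values the authors deposited, already scaled by them, were read as FPKM from this layout. The statistic the authors deposited is a score, and their p-value is unadjusted. Their log2 column runs as control over DMVD, so fold changes were recomputed the other way round.

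Where both group values were above 0, the authors' p matched a normal p of their statistic, two-sided, to within 2.84e-06, so dividing a fold change on the log2 scale by its statistic gave the SE. Benjamini-Hochberg adjustment ran over all 13788 ventricle or 14810 valve genes that the authors tested. The test between tissues set the difference of fold changes against the combined SE, with a two-sided normal p adjusted over 13099 genes. Both steps were run on simulated fold changes drawn with the genes' own SEs and with independent tissues. Such draws cannot check the SEs or that independence. Libraries of a group come from separate dogs. Listed starts were read as counted from 0 and are printed counted from 1. RefSeq's UU_Cfam_GSD_1.0 holds 46 SLC25A symbols, of which 40 matched a gene name. The other 6, among them SLC25A3, were not analysed here. Markers listed under UniProt entry names were matched by those names.

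The members, carrier groups and lists were chosen with earlier results of these data known. Named members were those past 0.05, the 3 lowest and 3 highest p in each direction and tissue, the 8 highest control levels per tissue, and the 5 largest control ratios each way among members of at least 1 FPKM in 1 tissue. Others were named after their values were seen. The values of 1 member, counted in all totals, are not reported here. Alternatives were another filter, another adjustment, centring, added FPKM and other scalings between tissues. The work used matplotlib 3.10.9, scipy 1.17.1, pandas 2.3.3 and numpy 2.4.6 under Python 3.11.15.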

Additional observations from a re-analysis of the deposited data

How the results depend on the processing

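The count of members past 0.05 in the ventricle was 1, and stayed 1 with genes of at least 1 FPKM and with fold changes centred on their median, but was 0 under Benjamini-Yekutieli. The counts for the valve and for the difference between tissues were 0 under each alternative run. The members' median log2 ratio of control valve over control ventricle was 0.04, and became -0.27 less the median of all genes, 1.12 by column sums, 0.10 by column sums without mitochondrial genome rows, an alternative chosen after seeing the data, and -0.082 between the DMVD groups. Centring turned the valve value of SLC25A26 to -0.0030. Of 338 alternatives for single members chosen by the naming rule, 336 kept direction and side of the threshold, this 1 reversed, and SLC25A25 lost its call under Benjamini-Yekutieli. Members named outside that rule, such as SLC25A21 and SLC25A24, were not run. Fold changes between DMVD and control were not rerun with column sums, so directions under that scaling are not given. Those sums were 772300 in DMVD and 898415 in control valves, and 1.07e+06 in DMVD and 1.90e+06 in control ventricles. Adding 1 FPKM changes no p and gave no count of its own. No paired analysis was possible because the tables hold 1 value per group, and for the same reason no replicate could be left out. Depth per library is unknown. The median SE of the members was 0.57 in the valve and 0.50 in the ventricle, so a 2-fold difference at that SE would not pass after adjustment.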
